A study of Mus musculus with 6 samples.

Results

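The 10 genes described here encode the oxygen-using enzymes that modify collagen after its synthesis. They are the 3 alpha subunits of collagen prolyl 4-hydroxylase (P4ha1, P4ha2 and P4ha3), the 3 lysyl hydroxylases (Plod1, Plod2 and Plod3) and 4 lysyl oxidases (Lox, Loxl1, Loxl2 and Loxl3). They were taken by name from the 55426 features of the count table, through their Ensembl identifiers in GENCODE M21. The rule uses no measured value, but the list was drawn up with earlier results of these data known. Loxl4, the remaining lysyl oxidase, was not on the list and is given beside it. RNA was measured in primary mouse pancreatic stellate cells (PSCs), the fibroblast precursors of the pancreas, which were isolated from wild-type C57BL/6 mice and used at low passage. All 6 samples were PSCs seeded in Matrigel in a transwell insert above organoids of mT3, a PDAC cell line derived from a mouse tumor. The cocultures were kept for 48 h under normoxia (21% O2, n = 3) or hypoxia (1% O2, n = 3), so tumor cells were present in both groups and PSCs cultured alone were not analysed here. The labels do not say whether the 3 samples of a group came from separate PSC lines, so p-values measure the spread between these samples, which may be technical.

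Fibrillar collagens are built in the endoplasmic reticulum as chains that are hydroxylated before they fold. Prolyl 4-hydroxylase is a tetramer of catalytic alpha subunits and of P4hb, and the hydroxyproline it makes stabilizes the collagen triple helix. Lysyl hydroxylases modify lysines of the chains, and Plod2 is known for hydroxylating the telopeptides, which shapes the later crosslinks. Both kinds of enzyme need iron, ascorbate and 2-oxoglutarate besides O2. Lysyl oxidases are secreted copper enzymes that use O2 to turn lysines of collagen and elastin into the aldehydes from which crosslinks form, and they stiffen the fibrotic stroma of PDAC. P4ha1, P4ha2, Plod1, Plod2 and Lox are known targets of hypoxia-inducible factors (HIFs), which bind the DNA core ACGTG or GCGTG.

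The promoters of the prolyl 4-hydroxylase genes are shown because the 3 family members moved unequally at 1% O2. Each line gives the 250 bases before the RefSeq start of transcription (GRCm38.p6), 5′ to 3′ on the strand of the gene, with every ACGTG or GCGTG on either strand in capitals. P4ha1 is at chr10:59323046-59323295, P4ha2 at chr11:54100674-54100923 and P4ha3 at chr7:100285270-100285519, all on the plus strand. The P4ha2 window lies inside the gene as GENCODE M21 annotates it, past its outermost start at 54100095, and the bases just after the RefSeq start were found in 1 of 15 annotated transcripts. For P4ha1 they were found in 1 of 3 transcripts and for P4ha3 in 2 of 5.
P4ha1: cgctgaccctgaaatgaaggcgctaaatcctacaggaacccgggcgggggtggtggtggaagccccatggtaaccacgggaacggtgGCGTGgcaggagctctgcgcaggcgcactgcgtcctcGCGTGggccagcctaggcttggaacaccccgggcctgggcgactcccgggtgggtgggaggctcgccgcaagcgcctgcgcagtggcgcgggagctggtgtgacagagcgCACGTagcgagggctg
P4ha2: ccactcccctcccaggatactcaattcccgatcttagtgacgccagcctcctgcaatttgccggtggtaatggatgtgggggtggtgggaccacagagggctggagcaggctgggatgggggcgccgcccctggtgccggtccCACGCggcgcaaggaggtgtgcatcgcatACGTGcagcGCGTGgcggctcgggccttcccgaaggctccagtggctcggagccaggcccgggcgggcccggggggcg
P4ha3: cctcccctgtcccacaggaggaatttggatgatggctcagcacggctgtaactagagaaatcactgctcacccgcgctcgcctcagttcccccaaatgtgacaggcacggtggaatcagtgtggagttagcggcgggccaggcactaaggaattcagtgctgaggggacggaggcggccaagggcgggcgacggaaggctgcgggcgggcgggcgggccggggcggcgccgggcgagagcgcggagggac
Both P4ha1 and P4ha2 held 1 ACGTG and 2 GCGTG in this window, and P4ha3 held neither motif. The Plod1 window (minus strand of chromosome 4, 147936777 to 147937026) held 1 GCGTG, and the Plod3 window (plus strand of chromosome 5, 136986769 to 136987018) held 1 ACGTG and 3 GCGTG. Of the 250 bases of the Plod3 window, 208 lie in annotated exons, and whether its matches lie in them was not examined. Of 32851 windows of this length in the table, 38.6% held at least 1 of these motifs. Plod2, Lox, Loxl1, Loxl2 and Loxl3 were not among the 5 members matched there. A match of letters is a description and not a binding site.

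Library totals lay between 24749601 and 25914892 counts in normoxia and between 25847719 and 31925054 in hypoxia. All 10 members passed the filter on low counts and were among the 16207 genes tested, and 8 of them were above 100 CPM in every sample. Here CPM are counts per 1000000 counts of the library, with library sizes normalized by TMM. A gene was called when edgeR's quasi-likelihood test gave a linear fold change beyond 1.5 and an adjusted p under 0.05, the thresholds of the study's methods. The 11 fibroblast markers were all detected and summed to 28437 to 35637 CPM in normoxia and 30469 to 35314 CPM in hypoxia, most of it from Col1a1, Col1a2 and Col3a1. Des, a marker of stellate cells, was low, between 10.5 and 19.0 CPM. Of these markers Pdgfra (log2 fold change 0.82) and Pdpn (0.99) were called higher and Lum (-2.17) and Thy1 (-1.005) lower. With the adjusted p alone, 4 were higher and 5 lower, against 31.8 and 31% of all tested genes. Of 8 epithelial markers, 5 were under 1 CPM in every sample, among them Epcam and Cdh1, while Krt19 and Sox9 were called higher at 1% O2. Of 5 acinar markers, 4 were at 0 counts in all samples. The 6 endothelial markers summed to 9.98 to 15.9 CPM in normoxia and 15.0 to 21.4 CPM in hypoxia. Among them Tek was called higher (5.14 ± 0.52 to 11.5 ± 2.70 CPM; SD, n = 3 each) and Kdr lower (log2 fold change -0.76), and the others were not called or not tested. The 10 leukocyte markers were all detected, with 862 to 1504 CPM in normoxia and 453 to 802 CPM in hypoxia when summed and with replicate 2 highest in each group. Lyz2 alone gave 653 to 1164 CPM of that sum in normoxia and 315 to 546 CPM in hypoxia. Lyz2, Adgre1, Cd68, Tyrobp and Fcer1g were called lower, while Itgam (log2 fold change -0.0015), Cd14 (0.08) and Csf1r (-0.24) did not pass the test. Ptprc (-0.59) and Mrc1 (-0.64) were lower by more than 1.5-fold but just missed the adjusted p threshold (edgeR adjusted p = 0.0514 and 0.0508). All 12 genes of a list of well known hypoxia-responsive genes were called higher, from Ldha (log2 fold change 1.03) to Car9 (5.13). Over all tested genes, 18.9% were called higher and 15.3% lower.

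Hypoxia was accompanied by higher RNA of most of these enzymes, but not of all isoforms. P4ha1, P4ha2, Plod1, Plod2, Lox and Loxl2 were called higher at 1% O2, which is 6 of 10 members, where 18.9% of all tested genes were called higher. No member was called lower, where 15.3% of all tested genes were. Loxl1 and P4ha3 were lower and Plod3 was higher with an adjusted p under 0.05 but less than 1.5-fold, and Loxl3 did not pass the test. The median log2 fold change of the members was 0.91, and that of all tested genes was -0.004. With the adjusted p alone, 9 of 10 members passed, 7 higher and 2 lower, against 62.7% of all tested genes, 31.8% higher and 31% lower. In 7 members every hypoxic sample was above every normoxic one, as in 34.9% of all tested genes, and in 2 every hypoxic sample was below, as in 34%. In 1 member the groups overlapped, where 68.9% of all tested genes had groups without overlap. In bulk RNA, a change in the number of expressing cells and a change in RNA per cell cannot be told apart.

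**Figure D1:**
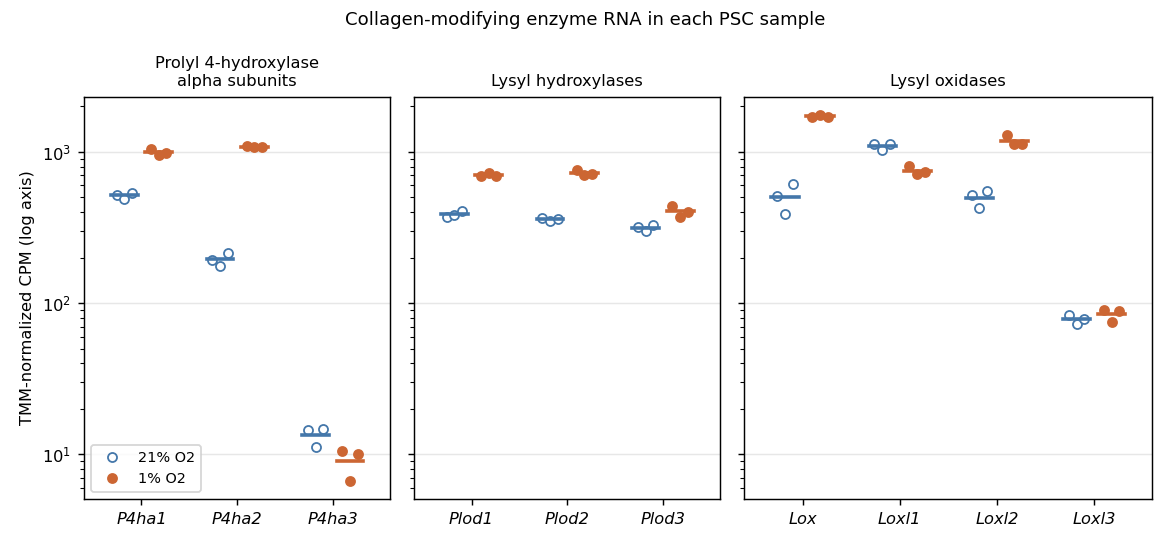
RNA of the 10 enzymes in each of the 6 PSC samples, as TMM-normalized CPM on a log axis. Open points are the samples at 21% O2, filled points those at 1% O2 and bars the group means (n = 3 each). P4ha2 rises from a mean of 194 to 1076 CPM and Lox from 504 to 1726 CPM, while Loxl1 is lower at 1% O2 and the Loxl3 samples overlap.

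The alpha subunits of prolyl 4-hydroxylase showed the widest range of changes. P4ha2 (ENSMUSG00000018906; plus strand of chromosome 11 in GRCm38, 54100095 to 54131665) was at 192, 176 and 216 CPM in normoxic replicates 1, 2 and 3. In hypoxic replicates 1, 2 and 3 it was at 1087, 1071 and 1070 CPM. All hypoxic samples lay within a narrow band far above the normoxic ones. The change was 5.53-fold, with a log2 fold change of 2.47 ± 0.08 (SE, edgeR adjusted p = 6.04e-08), the largest among the members and rank 401 of all tested genes.

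P4ha1, the most abundant alpha subunit in normoxic PSCs (ENSMUSG00000019916; plus strand of chromosome 10, 59323296 to 59373304), was at 521, 489 and 536 CPM in normoxia. It was at 1039, 953 and 982 CPM in hypoxia. The groups were well apart, and the log2 fold change was 0.94 ± 0.06 (SE, edgeR adjusted p = 3.03e-06), or 1.92-fold. P4ha3 (ENSMUSG00000051048; plus strand of chromosome 7, 100285520 to 100319699) was a minor member, at 14.5, 11.1 and 14.8 CPM in normoxia and 10.5, 6.70 and 9.99 CPM in hypoxia. Every hypoxic sample was below every normoxic one, by a small margin. Its log2 fold change was -0.58 ± 0.18 (SE, edgeR adjusted p = 0.0182), 1.49-fold lower and thus just inside the fold threshold. Without normoxic replicate 2, hypoxic replicate 1 or hypoxic replicate 3 it passed that threshold (log2 fold changes of -0.70, -0.69 and -0.66). Without normoxic replicate 1 or 3 its adjusted p was 0.0519 and 0.0651 (edgeR).

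Divided by exon length, the alpha subunits can be set against each other within a sample. P4ha1 made up 78.2, 78.9 and 76.8% of the summed CPM per kilobase of the 3 genes in normoxia. In hypoxia its share was 58.7, 57.1 and 57.7%. P4ha2 took the complementary course, from 19.4% ± 0.91 to 41.4% ± 0.91 (SD, n = 3 each), and P4ha3 went from 2.67% ± 0.27 to 0.69% ± 0.14. The ratio of P4ha1 to P4ha2 per kilobase was 4.12, 4.22 and 3.76 in normoxic samples and 1.45, 1.35 and 1.39 in hypoxic samples. Which of them was higher in hypoxia depended on the length used. P4ha2 has 6239 bases over all exons but 3060 in its longest transcript, and with the latter the ratio of P4ha1 to P4ha2 was 2.06, 2.11 and 1.88 in normoxia and 0.723, 0.674 and 0.695 in hypoxia, so P4ha2 was then the higher one. P4ha2 held 32.3% ± 1.26 of the family in normoxia and 58.6% ± 0.92 in hypoxia by that length (SD, n = 3 each). Its share was higher in hypoxia by both lengths, while the order of the genes in hypoxia was not settled. The comparison of order by the longest transcript was added after the data were seen. The summed level of the 3 genes was 161 ± 9.56 CPM per kilobase in normoxia and 416 ± 12.6 in hypoxia (SD, n = 3 each), 2.59 times as high.

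P4hb, the partner subunit, which is also a protein disulfide isomerase, was at 1375 ± 75.1 CPM in normoxia and 2623 ± 79.9 in hypoxia (SD, n = 3 each), and its log2 fold change was 0.93 (edgeR adjusted p = 5.07e-06). Relative to P4hb per kilobase, the summed alpha subunits were 32.4, 33.4 and 34.5% in normoxia and 46.1, 43.5 and 46.7% in hypoxia. The groups did not overlap in this ratio of the sum, as in 67.9% of all pairs of tested genes, which P4ha2 carried, since the log2 fold change of P4ha1 (0.94) was close to that of P4hb and that of P4ha3 was negative.

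Among the lysyl hydroxylases, Plod1 and Plod2 rose and Plod3 was higher by less than 1.5-fold. Plod2 (ENSMUSG00000032374; plus strand of chromosome 9, 92542223 to 92608428) was at 367, 351 and 360 CPM in normoxia and 756, 705 and 710 CPM in hypoxia. Samples of each group lay close together, and the change was 2.01-fold, a log2 fold change of 1.01 ± 0.06 (SE, edgeR adjusted p = 1.05e-06). Exons of Plod2 share 346 of 5392 bases with Gm38391 on the opposite strand. The count table sums the splice forms of a gene, so the forms of Plod2 could not be compared. Plod1 (ENSMUSG00000019055; minus strand of chromosome 4, 147909753 to 147936767), which hydroxylates lysines of the helical part of collagen, was at 371, 380 and 407 CPM in normoxia. It was at 692, 727 and 694 CPM in hypoxia, a clear separation, with a log2 fold change of 0.87 ± 0.06 (SE, edgeR adjusted p = 3.35e-06).

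Plod3 (ENSMUSG00000004846; plus strand of chromosome 5, 136987019 to 136996648) also carries glycosyltransferase activity toward hydroxylysine. It was at 318, 299 and 330 CPM in normoxia and 439, 370 and 402 CPM in hypoxia. The hypoxic samples were all higher, but the lowest was close to the highest normoxic one. Its log2 fold change of 0.36 ± 0.07 (SE, 95% interval 0.19 to 0.52, edgeR adjusted p = 0.00239) stayed under 1.5-fold. Of its 4519 exonic bases, 529 are shared with Znhit1 on the opposite strand, and the strand setting of the counting is not given in the sources used here.

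Within the family, Plod2 gained on Plod3, while the order of the genes in normoxia depended on the length used. In normoxia Plod3 and Plod2 were level over all exons, at 69.9 ± 3.40 and 66.6 ± 1.53 CPM per kilobase, and Plod1 was at 57.1 ± 2.72 (SD, n = 3 each). By the longest transcript all 3 were close in normoxia, at 96.3 ± 4.69, 98.1 ± 2.26 and 94.2 ± 4.50 CPM per kilobase for Plod3, Plod2 and Plod1 (SD, n = 3 each). In hypoxia Plod2 led by either length, over all exons with 134 ± 5.20 CPM per kilobase, followed by Plod1 with 104 ± 2.84 and Plod3 with 89.4 ± 7.64 (SD, n = 3 each). The share of Plod3 went from 36.1% ± 0.65 to 27.3% ± 1.53 and that of Plod2 from 34.4% ± 0.94 to 40.9% ± 0.28 (SD, n = 3 each). The ratio of Plod2 to Plod3 per kilobase of all exons was 0.968, 0.982 and 0.914 in normoxia and 1.44, 1.60 and 1.48 in hypoxia, without overlap. By the longest transcript it was 1.03, 1.05 and 0.977 in normoxia and 1.54, 1.70 and 1.58 in hypoxia. For Plod1 against Plod2 the log2 ratio was -0.31, -0.21 and -0.15 in normoxia and -0.45, -0.28 and -0.36 in hypoxia. These groups overlapped, with a difference of -0.14 between their means (exact permutation test, two-sided p = 0.2, where 0.1 is the smallest that 3 samples against 3 allow).

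The lysyl oxidases diverged in direction. Lox (ENSMUSG00000024529; minus strand of chromosome 18), the founding member of the family, was at 508, 386 and 617 CPM in normoxia. In hypoxia it was at 1711, 1756 and 1711 CPM. The normoxic samples were spread widely, with replicate 2 lowest, while the hypoxic samples were nearly equal. Lox rose 3.43-fold, a log2 fold change of 1.78 ± 0.14 (SE, 95% interval 1.45 to 2.10, edgeR adjusted p = 8.91e-06). Loxl2 (ENSMUSG00000034205; plus strand of chromosome 14, 69609068 to 69695834), which acts on collagen IV of basement membranes among other substrates, was at 520, 422 and 550 CPM in normoxia and 1300, 1126 and 1130 CPM in hypoxia. Its groups were also far apart, with a log2 fold change of 1.25 ± 0.10 (SE, edgeR adjusted p = 1.06e-05). Exons of Loxl2 share 301 of 5405 bases with the antisense gene Gm27177.

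Loxl1, which is known for its role in elastic fibre formation (ENSMUSG00000032334; minus strand of chromosome 9, 58287738 to 58313186), was at 1130, 1035 and 1135 CPM in normoxia. In hypoxia it was at 803, 718 and 733 CPM. Each hypoxic sample was well below each normoxic one, yet the change was 1.46-fold lower and did not reach the fold threshold. The log2 fold change was -0.55 ± 0.07 (SE, 95% interval -0.71 to -0.39, edgeR adjusted p = 0.00013), and it passed 1.5-fold without normoxic replicate 2 or hypoxic replicate 1 (-0.60 each). Loxl3 (ENSMUSG00000000693; plus strand of chromosome 6, 83034173 to 83052562) was at 83.1, 73.2 and 78.2 CPM in normoxia and 90.6, 74.5 and 88.2 CPM in hypoxia. These groups overlapped, with a log2 fold change of 0.11 (95% interval -0.08 to 0.30, edgeR adjusted p = 0.266), and 535 of its 4603 exonic bases are shared with Htra2 on the opposite strand. Without hypoxic replicate 2 its adjusted p was 0.0423 (edgeR), at a log2 fold change of 0.19. Loxl4, outside the list, was at 19.5 ± 4.22 and 22.1 ± 2.11 CPM (SD, n = 3 each), with overlapping groups and an adjusted p of 0.297 (edgeR).

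**Figure D2:**
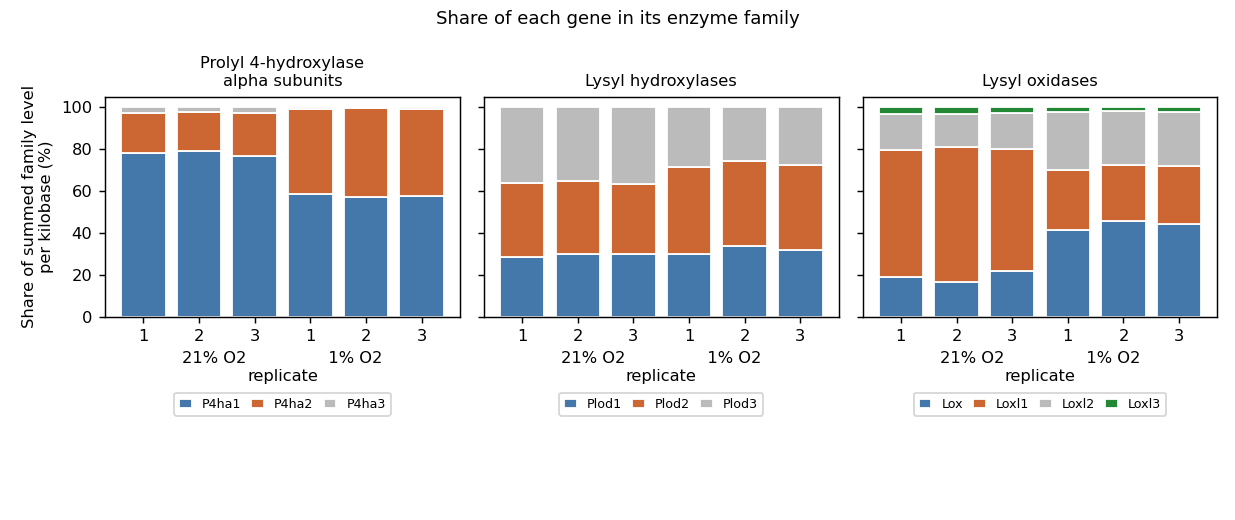
Share of each gene in the summed CPM per kilobase of exon of its enzyme family, in percent, for each of the 6 samples (replicates 1 to 3 at 21% O2, then 1 to 3 at 1% O2). Loxl1 falls from a mean of 61.1% to 27.5% of the lysyl oxidases while Lox grows from 19.1% to 43.7%, and P4ha2 grows from 19.4% to 41.4% of the alpha subunits.

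The makeup of the lysyl oxidase family was therefore different at the oxygen levels compared. Loxl1 made up 60.8, 64.2 and 58.2% of the summed CPM per kilobase of the 4 members in normoxia and 28.3, 26.9 and 27.5% in hypoxia. Lox held 18.9, 16.5 and 21.8% in normoxia and 41.5, 45.4 and 44.3% in hypoxia. The ratio of Lox to Loxl1 per kilobase was 0.310, 0.257 and 0.375 in normoxic samples and 1.47, 1.69 and 1.61 in hypoxic samples, so the order of these genes was turned around. Loxl2 went from 16.7% ± 0.66 to 26.5% ± 1.23 and Loxl3 from 3.11% ± 0.21 to 2.22% ± 0.19 (SD, n = 3 each). The ratio of Loxl1 to Loxl2 was 3.56, 4.02 and 3.39 in normoxia and 1.01, 1.04 and 1.06 in hypoxia, where these genes had nearly the same level per kilobase. The summed level of the 4 genes was 548 ± 53.3 CPM per kilobase in normoxia and 827 ± 30.4 in hypoxia (SD, n = 3 each), 1.51 times as high.

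Of the 12 pairs of members within a family, the log2 ratio did not overlap between the groups in 11, the exception being Plod1 with Plod2. Over all pairs of tested genes, 67.9% had ratios that did not overlap. For each of the 11 pairs the exact two-sided permutation p was 0.1, the smallest that 3 samples against 3 can give, so no pair could pass 0.05. The pair with the largest shift was P4ha2 with P4ha3, whose log2 ratio per kilobase increased by 3.06. Next were Lox with Loxl1, at 2.35, and Loxl1 with Loxl2, which moved by -1.81.

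**Figure D3:**
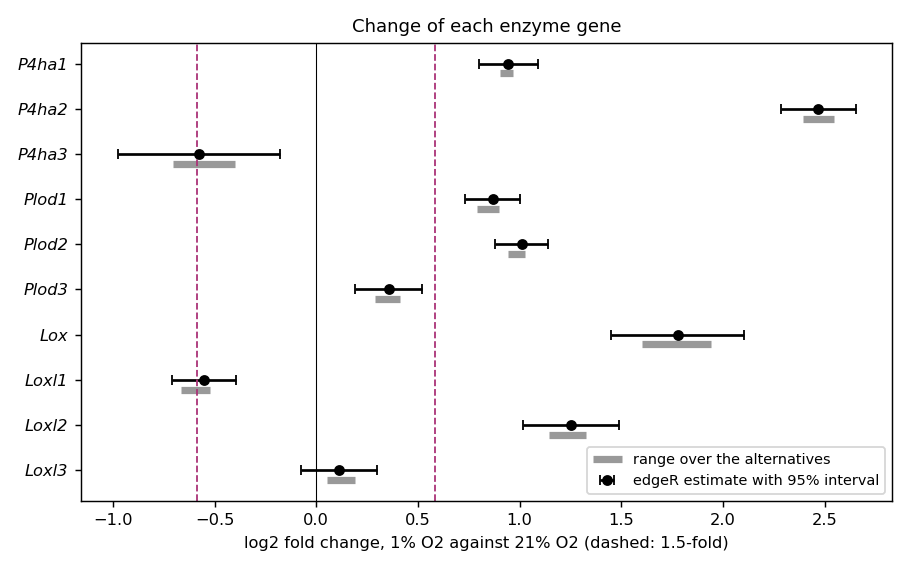
Log2 fold change at 1% against 21% O2 for each enzyme, with the edgeR estimate and its 95% interval in black and the range over the alternative analyses in gray. Dashed lines mark 1.5-fold. The intervals of P4ha1, P4ha2, Plod1, Plod2, Lox and Loxl2 lie wholly above the upper line, those of P4ha3 and Loxl1 span the lower line, and that of Loxl3 spans 0.

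Across all 10 genes, the order of levels per kilobase of all exons changed as well. In normoxia Loxl1 was the highest, at 334 ± 17.1 CPM per kilobase, followed by P4ha1 at 125 ± 5.81, Lox at 105 ± 24.2 and Loxl2 at 92.0 ± 12.3 (SD, n = 3 each). Samples of P4ha1 and Lox overlapped, as did those of Lox and Loxl2. P4ha2 was at 31.2 ± 3.24 CPM per kilobase, Loxl3 at 17.0 ± 1.08 and P4ha3 at 4.30 ± 0.65, each below the one before without overlap. In hypoxia Lox was the highest, at 361 ± 5.52, and P4ha1 (241 ± 10.6), Loxl1 (228 ± 13.8) and Loxl2 (219 ± 18.4) overlapped with one another. P4ha2 came next at 172 ± 1.54, above Plod2, and Loxl3 (18.3 ± 1.89) and P4ha3 (2.89 ± 0.66) remained the lowest. By the longest transcript P4ha2 was instead second after Lox in hypoxia, at 352 ± 3.15 against 364 ± 5.56 (SD, n = 3 each), and Loxl1 in normoxia and Lox in hypoxia were again the highest by their means.

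None of the 3 main fibrillar collagen genes on which these enzymes act was called. The summed CPM per kilobase of Col1a1, Col1a2 and Col3a1 was 3147, 2612 and 3427 in normoxia and 3377, 2728 and 3104 in hypoxia, with overlapping groups (exact permutation test, two-sided p = 1). Col1a1 (log2 fold change 0.03, edgeR adjusted p = 0.863) and Col3a1 (0.19, edgeR adjusted p = 0.142) did not pass the test, and Col1a2 was lower by less than 1.5-fold (-0.46, edgeR adjusted p = 0.00476). As a percentage of these collagens, the prolyl 4-hydroxylase alpha subunits were at 5.14, 5.76 and 4.95% in normoxia and 12.7, 14.9 and 13.3% in hypoxia. The lysyl hydroxylases were at 6.15, 7.18 and 5.83% and then at 10.1, 11.7 and 10.4%. The lysyl oxidases were at 17.9, 18.7 and 17.3% and then at 25.5, 29.7 and 26.1%. In each family all hypoxic samples exceeded all normoxic samples on this scale, where ratios of 67.9% of all pairs of tested genes do not overlap between the groups in one direction or the other. These ratios were chosen after the values had been seen.

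Of 10 collagen and elastin genes, 1 was called higher and 2 lower, where 18.9% of all tested genes were called higher and 15.3% lower. Col5a3, a minor fibrillar chain, rose from 386 ± 26.6 to 1386 ± 183 CPM (SD, n = 3 each). Eln, the gene of elastin, was at 131, 173 and 159 CPM in normoxia and 34.91, 32.74 and 32.02 CPM in hypoxia, so it fell with no overlap (log2 fold change -2.22, edgeR adjusted p = 2.8e-07). Col11a1 fell from 9.81 ± 3.11 to 1.38 ± 0.27 CPM (SD, n = 3 each). Among 11 genes of elastic fibres and other matrix partners, 2 were called higher and 3 lower, against the same shares of all tested genes. Fn1, fibronectin, rose (log2 fold change 0.90), as did the microfibril gene Mfap5 (0.71). Mfap2 and Mfap4, also of microfibrils, and Fmod, a proteoglycan that binds collagen, were lower, with log2 fold changes of -1.19, -0.95 and -0.71.

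The other genes of collagen folding had a smaller median change than the members. Of 14 of them, 2 were called higher and 0 lower, against 18.9 and 15.3% of all tested genes. Their median log2 fold change was 0.09. Besides P4hb, the called gene was Colgalt2, a collagen galactosyltransferase, which had 3, 2 and 5 counts in normoxia and 67, 81 and 86 in hypoxia. Serpinh1, the collagen chaperone HSP47, was lower by less than 1.5-fold, from 2279 ± 148 to 1749 ± 63.4 CPM (log2 fold change -0.38, edgeR adjusted p = 0.0014). Crtap, a component of the prolyl 3-hydroxylase complex, was likewise lower, with a log2 fold change of -0.56. Of the 3 prolyl 3-hydroxylases, which use O2 as well, P3h3 (0.57) and P3h1 (0.23) were higher with adjusted p of 4.44e-05 and 0.00759 (edgeR) but under 1.5-fold, and P3h2 was below 1 CPM.

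**Figure D4:**
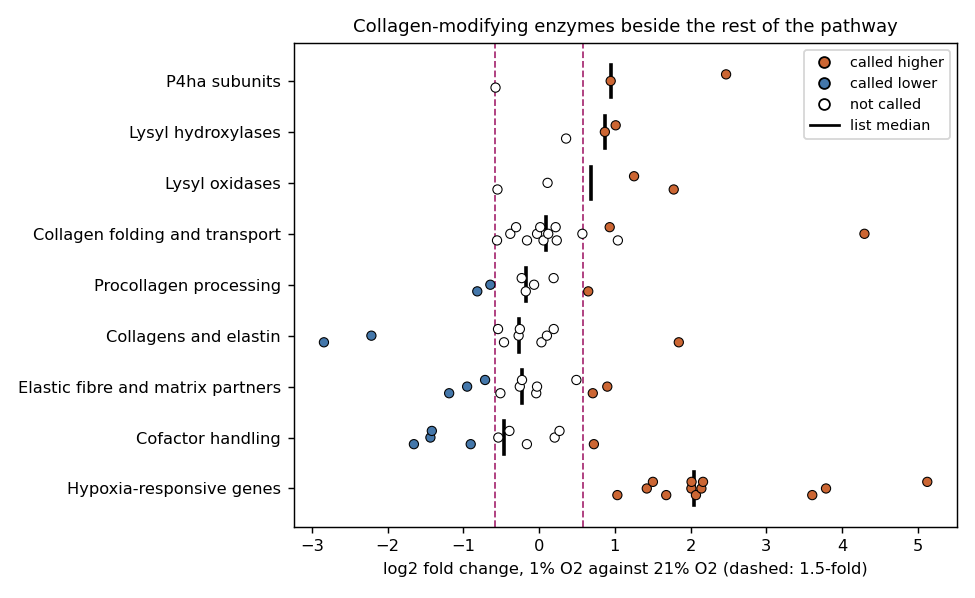
Log2 fold change at 1% against 21% O2 of each tested gene in the 3 enzyme families and in 6 lists of related genes. Orange marks genes called higher, blue genes called lower and white genes not called, and vertical ticks are list medians. The medians of the enzyme families are 0.94, 0.87 and 0.68, that of collagen folding genes is 0.09 and those of procollagen processing, collagens and elastin, matrix partners and cofactor handling are below 0.

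Genes of procollagen processing were called in both directions. Of 7 tested, Adamts3 was called higher, at 4.91 ± 0.89 and 7.71 ± 0.85 CPM (SD, n = 3 each), and Adamts2 and Pcolce2 were called lower. Over all tested genes, 18.9% were called higher and 15.3% lower. Adamts2, the main remover of amino-terminal propeptides, fell from 1588 ± 138 to 901 ± 59.3 CPM (SD, n = 3 each). Bmp1, which cleaves the carboxy-terminal propeptides and also activates pro-Lox, was at 1069 ± 79.0 and 1220 ± 154 CPM (SD, n = 3 each) with overlapping groups. Genes that handle the cofactors were tested too, and of 10 tested 1 was called higher and 4 lower, against the same shares. Slc23a2, a transporter of ascorbate, rose (log2 fold change 0.72), and Slc40a1, the iron exporter ferroportin, fell by 1.65 on the log2 scale. Idh1 and Idh2, which make 2-oxoglutarate, had log2 fold changes of -1.44 and -0.90, and Steap3, a ferrireductase, of -1.42.

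The replicates numbered 2 stood apart in the cell markers. The summed leukocyte markers were highest in replicate 2 of each group, at 1504 CPM in normoxia and 802 CPM in hypoxia. Of these 10 markers, 5 were called lower at 1% O2, where 15.3% of all tested genes were. The members were lowest in replicate 2 in 9 of 10 cases in normoxia and in 7 of 10 in hypoxia, against 34.2 and 34.8% of all tested genes. When both replicate 2 samples were left out, an alternative chosen after the data were seen, the same 6 genes were called higher. Their log2 fold changes were then 0.93 for P4ha1, 2.40 for P4ha2, 0.83 for Plod1, 1.01 for Plod2, 1.60 for Lox and 1.18 for Loxl2.

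The genes whose profile over the 6 samples was most like that of a member were found by the root mean square difference of centered log2 CPM, among 9780 other genes at a mean of at least 10 CPM. For P4ha1 they were Cdc42ep3 (difference 0.022), Ntn1 (0.022) and Trim65 (0.028). For Plod2 they were Obsl1 (0.035), Rbms2 (0.037) and Ulk1 (0.038), and for Loxl2 Arhgap28 (0.058), Trpc1 (0.061) and Rftn1 (0.076). All of these genes were higher in hypoxia, which follows from the measure.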

How the data were processed

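Poly(A) RNA of 6 PSC samples was sequenced, with conditions and replicate numbers as the labels give them. After adapter trimming, the authors aligned the reads with STAR (2.6.1b) to GRCm38 and estimated gene counts with RSEM (1.3.1). The values they deposited are expected counts for 55426 features, not normalized between samples, and 0 of them had a fraction, so rounding changed nothing. The annotation release and the strand setting are not given in the sources used here. Names, lengths and coordinates were taken from GENCODE M21 (GRCm38), in which 55240 identifiers were found and 186 were not. Promoter sequences are from RefSeq (GRCm38.p6). The genotype of the tumor line is not reported here.

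The counts were fitted with edgeR 4.0.16 (limma 3.58.1, R 4.3.3): filterByExpr, TMM, the quasi-likelihood F test between hypoxic and normoxic samples without covariates, and Benjamini-Hochberg adjustment over 16207 genes. Standard errors were computed as the log2 fold change over the square root of F. CPM per kilobase are CPM divided by the length of all exons of a gene. Ratios within a family were compared with exact two-sided permutation tests. The fits were tested on simulated data. DESeq2 was version 1.42.0.

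The totals of 24749601 to 31925054 counts put 3 counts, taken as the smallest amount distinguishable from none, at 0.094 to 0.121 CPM, which covers counting error only. Replicates of a group differed by more than sampling noise (chi-square per degree of freedom at least 5.68).

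The text names all 10 members, Loxl4, called genes of the lists, and the 3 nearest genes of P4ha1, Plod2 and Loxl2. Up to 4 called genes of each list were planned, those with the highest or lowest log2 fold changes. More were named among the leukocyte markers, the matrix partners and the cofactor genes. Genes of the lists that were not called were named after their values were seen. These are Col1a1, Col1a2, Col3a1, Serpinh1, Crtap, Bmp1 and the prolyl 3-hydroxylases. Among the cell markers they are Des, Epcam, Cdh1, Itgam, Cd14, Csf1r, Ptprc and Mrc1. The members and lists were chosen with earlier results of these data known. Alternatives were other normalizations, filters, thresholds, length definitions and tools, the replicate number as a block, corrections for GC content and gene length, and each sample left out.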

Additional observations from a re-analysis of the deposited data

How the results depend on the processing

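P4ha1, P4ha2, Plod1, Plod2, Lox and Loxl2 were called higher, and Plod3 and Loxl3 were not called, under each of the 18 alternative fits, all with the 1.5-fold threshold. The calls that moved in these fits were those of P4ha3 and Loxl1, whose estimates lie next to the 1.5-fold threshold. P4ha3 was called lower with upper-quartile normalization (-0.60), library totals only (-0.59), no filter (-0.60), limma-voom (-0.60) and the length correction (-0.59), and Loxl1 with the GC correction (-0.66) and with the replicate block and GC correction together (-0.66). The count of members called lower was therefore 1 in each of these analyses and 2 with the adjusted p alone, against 0. With each sample left out it ran from 0 to 2, with log2 fold changes from -0.70 to -0.40 for P4ha3 and from -0.60 to -0.52 for Loxl1. With the adjusted p alone 10168 genes were called (5150 higher, 5018 lower), and at a 2-fold threshold 3156 (1929 higher, 1227 lower), against 5547. Among the members, 7 were called higher with the adjusted p alone, where Plod3 was added, and 4 at the 2-fold threshold, where P4ha1 and Plod1 lost their calls. With the longest transcript as length, the shift in share was -24.1 points for P4ha1 and 26.3 for P4ha2, against -20.1 and 22.1, and P4ha2 was above P4ha1 in all hypoxic samples, which turned their order around, and without length division it was -23.6 for P4ha1, 25.0 for P4ha2, -1.42 for P4ha3 and -1.35 for Loxl3. Samples of the groups share the replicate numbers 1 to 3, and the labels do not say whether these are pairs. The deviations of samples 1, 2 and 3 from their group means correlated at 0.14, 0.14 and 0.04 across groups, which cannot settle it. The main fit left pairing out. With the replicate number as a block, 6 members were called higher and 0 lower, and 5572 genes were called in all. The SE of each member was smaller with the block. For P4ha3 it was 0.09 against 0.18, with an edgeR adjusted p of 0.00078, and for Loxl3 it was 0.06 against 0.08, with an edgeR adjusted p of 0.118. At the depth of these libraries the lowest member, P4ha3, rested on 210 to 377 counts a sample.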
